A study of Mus musculus with 12 samples.

Results

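Osteoclasts, the cells that dissolve bone, and the cytokine axis that forms them were followed through 10 genes in mouse ankle joints with and without arthritis. The genes were Tnfsf11, Tnfrsf11a and Tnfrsf11b (the RANKL axis), the transcription factor Nfatc1, the cell surface molecules Oscar, Itgb3 and Calcr, and the resorption genes Acp5, Ctsk and Atp6v0d2. Each gene was read from the feature of the array whose annotation gives its symbol alone, and each had 1 such feature, so that 10 of the 19938 genes with a symbol of their own are described here. Expression was measured on Affymetrix Mouse Gene 1.0 ST arrays, 1 per mouse, with 4 groups of 3 mice whose whole ankles were processed. Mmp8+/+ and Mmp8-/- mice, the latter without the neutrophil collagenase gene Mmp8 in every tissue, carried the C57BL/6 background after 12 backcrosses. Arthritic mice of either genotype were given 150 µl of pooled serum from arthritic K/BxN mice into the peritoneum on day 0 and again on day 2, and the ankles were taken on day 7. Mice were 6 to 8 weeks old when the serum was given. The control mice are labelled only as controls. The authors describe them as nonarthritic, and their age is not given in the sources used here. Serum transfer supplies ready-made antibodies, so it models the effector phase of arthritis and not the loss of tolerance that precedes it. The deposited values are log2 signals, in which 1 unit is a 2-fold difference in signal, and all levels below are on that scale.

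RANKL, encoded by Tnfsf11, is carried by osteoblast lineage cells, osteocytes, synovial fibroblasts and activated T cells. It binds its receptor RANK, encoded by Tnfrsf11a, on monocytes and macrophages and, together with the growth factor M-CSF, turns them into multinucleated osteoclasts. Osteoprotegerin, encoded by Tnfrsf11b and secreted mainly by osteoblasts and stromal cells, is a soluble decoy that keeps RANKL from its receptor. RANK signals through NF-kappaB and AP-1 to Nfatc1, the master regulator of the osteoclast programme, which drives the resorption genes. In inflamed joints RANKL is known for the part it plays in bone erosion at the margins of the synovium.

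Tnfsf11 and Oscar were the members with the largest rises in these joints, and Ctsk encodes the chief collagen-degrading enzyme of the osteoclast, so the 250 bases ahead of their transcription starts are shown. The sequences come from RefSeq on mouse build GRCm38.p6 and run 5′ to 3′ on the strand of the gene. Capitals mark matches, on either strand, to the letters of 3 sites that osteoclast factors are known to use: GGAAA for NFAT, GAGGAA for PU.1 and TGANTCA for AP-1. A GAGGAA followed by a further A would also hold GGAAA. A longer NF-kappaB motif was searched as well.
Tnfsf11, chr14:78308044-78308293, minus strand: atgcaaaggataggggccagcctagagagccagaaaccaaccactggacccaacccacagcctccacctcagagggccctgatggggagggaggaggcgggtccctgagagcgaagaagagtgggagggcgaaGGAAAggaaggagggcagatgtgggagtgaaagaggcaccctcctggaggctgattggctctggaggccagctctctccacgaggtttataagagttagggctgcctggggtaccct
Oscar, chr7:3616158-3616407, minus strand: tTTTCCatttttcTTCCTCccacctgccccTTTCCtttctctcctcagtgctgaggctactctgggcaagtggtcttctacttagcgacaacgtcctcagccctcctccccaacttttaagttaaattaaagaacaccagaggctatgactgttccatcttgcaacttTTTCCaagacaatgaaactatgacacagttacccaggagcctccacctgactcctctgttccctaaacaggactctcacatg
Ctsk, chr3:95498960-95499209, plus strand: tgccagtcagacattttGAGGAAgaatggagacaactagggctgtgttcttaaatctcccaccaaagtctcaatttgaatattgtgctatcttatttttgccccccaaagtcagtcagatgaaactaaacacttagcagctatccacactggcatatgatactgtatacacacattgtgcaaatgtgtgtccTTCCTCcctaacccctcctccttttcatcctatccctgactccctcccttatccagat
The window of Tnfsf11 held 1 match to GGAAA, that of Oscar held 3 together with 1 match to GAGGAA, and that of Ctsk held 2 matches to GAGGAA. Among 32851 promoters of the same length, 55.6% held GGAAA, 23.3% held GAGGAA, 6.75% held TGANTCA and 7.25% held the NF-kappaB motif. In the 9 windows examined, which belong to 6 of the 10 members, neither TGANTCA nor the NF-kappaB motif occurred. The other members are not covered by this. The matches are letters only, and binding was not measured.

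Signal medians of the 12 arrays lay between 6.74 and 6.82. Mmp8 read 10.21 to 11.16 on the 6 Mmp8+/+ arrays and 4.64 to 5.54 on 5 of the 6 arrays labelled Mmp8-/-, but 10.65 on the array labelled Mmp8-/- control 2. The mice were stated to be male. Yet Xist, transcribed from the inactive X chromosome, read 10.42 to 10.92 on Mmp8+/+ control 1 and Mmp8-/- control 1 and 4.66 to 5.41 on the other 10, and the Y-linked Eif2s3y read 4.02 to 4.16 on that pair and 7.94 to 9.27 elsewhere. All 3 arrays are controls, so results are also given without them. The labelled tissue was checked by marker lists. Their mean signal per array was 7.88 to 8.88 for cartilage and 9.61 to 10.38 for synovial fibroblasts. It was 9.26 to 12.53 for skeletal muscle and 7.82 to 9.72 for epidermis, so that muscle and skin were in the samples too. Muscle means were 11.64 to 12.53 in Mmp8+/+ and 11.56 to 11.93 in Mmp8-/- controls. With arthritis they were lower, 9.26 to 11.34 and 9.60 to 10.88. The part of muscle in the arthritis values of the members was not tested.

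With arthritis, the RANKL gene rose and the gene of its decoy fell in both genotypes, while the osteoclast enzyme gene Acp5 hardly moved. Averaged over the genotypes, 7 of the 10 members passed the test, with Tnfsf11, Oscar, Nfatc1, Atp6v0d2 and Ctsk higher and Tnfrsf11b and Itgb3 lower. Over all 17450 features tested, 43.0% passed in this comparison (19.8% higher and 23.2% lower). Passing means an adjusted p under 0.05 in limma, fitted over all 12 arrays with Benjamini-Hochberg adjustment over every feature tested. The median log2 fold change was 0.38 over the members and -0.00 over all features. Within Mmp8+/+ mice 4 members passed, 2 higher and 2 lower, against 19.6% of all features (7.47% higher and 12.1% lower). Within Mmp8-/- mice 5 passed, 4 higher and 1 lower, against 22.6% of all features (8.30% higher and 14.3% lower). Of the features that passed in Mmp8-/- mice 36.7% were higher, a share that was 49.3% with each array centred on its mean and 49.9% after quantile normalization. In the average 46.0% were higher, against 55.3% and 54.2% under these scalings, so that which direction held the larger share turned. All 10 members entered the test, and their mean was above the minimum signal in each group.

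**Figure D1:**
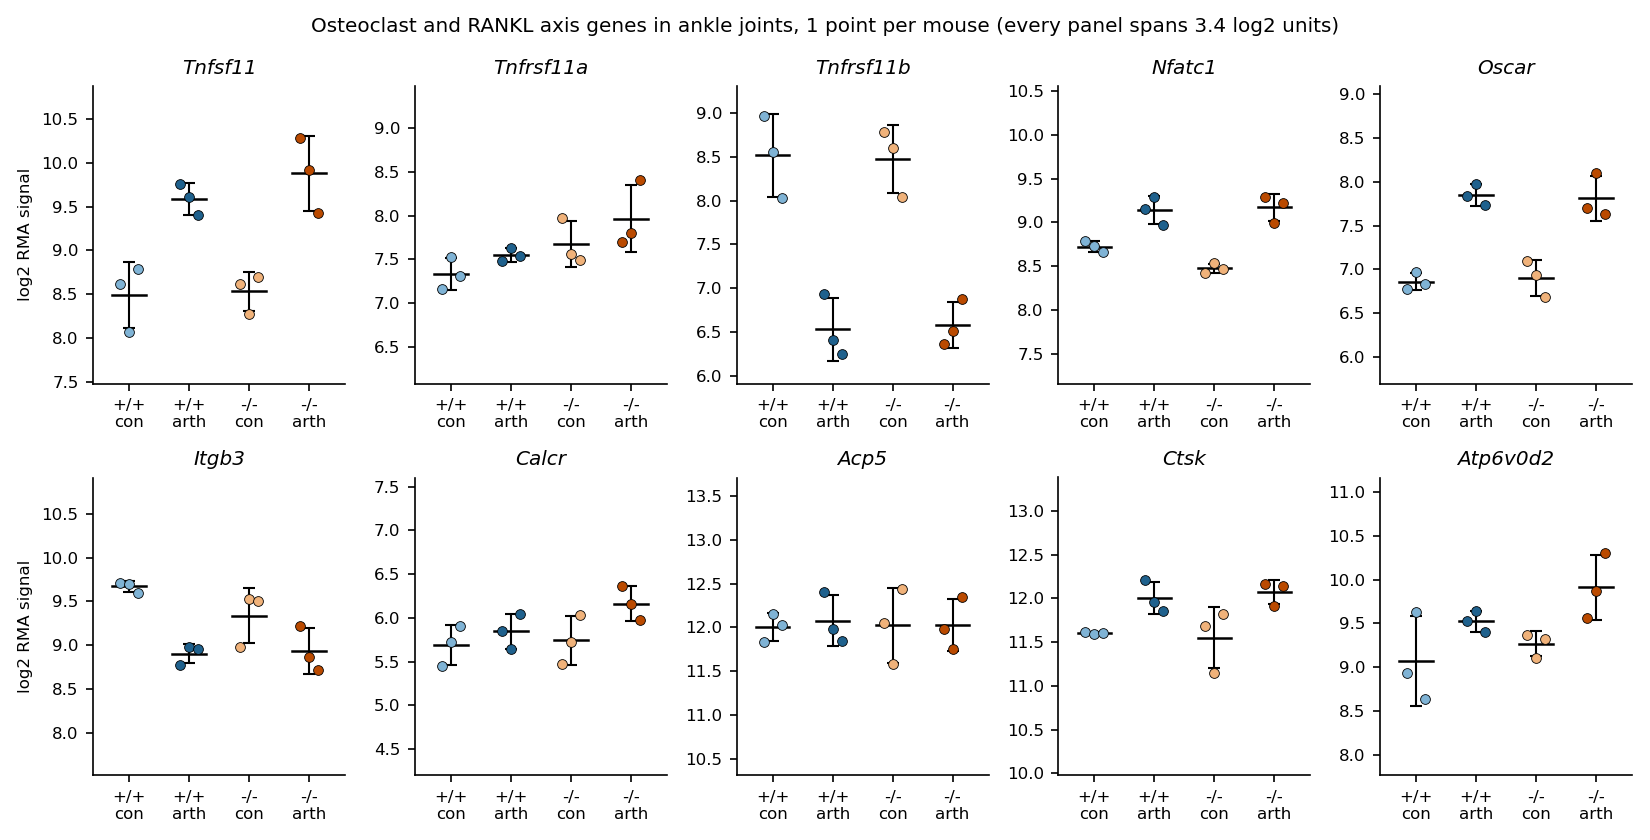
Log2 signal of each of the 10 genes on the 12 arrays, 1 point per mouse, with the mean (line) and SD (bars) of each group of 3. Every panel spans the same number of log2 units, and +/+ and -/- stand for the Mmp8 genotypes, con for control and arth for arthritic. All arthritic points of Tnfsf11 lie above all control points, and all those of Tnfrsf11b lie below them.

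Tnfsf11 read 8.61, 8.07 and 8.79 in Mmp8+/+ control mice and 9.76, 9.61 and 9.40 in arthritic Mmp8+/+ mice. The Mmp8-/- mice read 8.62, 8.27 and 8.70 as controls and 10.29, 9.92 and 9.43 when arthritic. All 6 arthritic arrays thus lay above all 6 control arrays, with no overlap in either genotype. The rise was 2.14-fold in Mmp8+/+ mice (log2 fold change 1.10, SE 0.23, limma adjusted p = 0.00409) and 2.55-fold in Mmp8-/- mice (1.35, SE 0.23, adjusted p = 0.00106). Averaged, it was 2.34-fold (95% interval 1.84 to 2.97), and 99.2% of all features tested had a lower fold change. In order of level the control groups came first, 0.04 apart, and the arthritic groups last, 0.29 apart, and each of these gaps was smaller than the larger SD of the pair. In whole joints a change in the number of cells of a type and a change in RNA per cell cannot be told apart.

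Tnfrsf11b, the decoy receptor, moved the other way. Its log2 signals were 8.97, 8.55 and 8.03 in Mmp8+/+ controls and 6.93, 6.41 and 6.25 in arthritic Mmp8+/+ mice. For Mmp8-/- mice they were 8.78, 8.60 and 8.04 without and 6.36, 6.50 and 6.88 with arthritis. Every arthritic array was at least 1 log2 unit below every control array. The level fell 3.96-fold in Mmp8+/+ mice (-1.99, SE 0.26, limma adjusted p = 0.000117) and 3.72-fold in Mmp8-/- mice (-1.89, SE 0.26, adjusted p = 0.000180). Only 0.911% of all features tested had a lower average fold change. The genotypes lay 0.05 apart among arthritic and 0.04 apart among control mice, well within the spread.

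Because RANKL acts only where osteoprotegerin leaves it free, the difference of the 2 log2 signals was followed in each mouse, relative to the mean of the controls of its genotype. Levels of different features cannot be set against each other on an array, so only the shift of this difference is read. In control Mmp8+/+ mice it was -0.33, -0.45 and 0.78, and in the arthritic ones 2.85, 3.22 and 3.18. Control Mmp8-/- mice stood at -0.22, -0.39 and 0.61, and arthritic ones at 3.87, 3.36 and 2.50. The shift of RANKL against its decoy was 3.09 log2 units in Mmp8+/+ mice (8.49-fold) and 3.24 in Mmp8-/- mice (9.47-fold). An exact permutation test, two-sided, gave p = 0.1 in each genotype, the smallest value that 3 against 3 mice allow. With both genotypes together, permuted within genotype, the mean shift of 3.16 (8.97-fold) had an exact permutation p = 0.005. That is the smallest value that 400 splits allow. Arthritic and control arrays were already fully apart for each of the 2 genes. These p-values were thus fixed beforehand and add no support of their own. Between the genotypes, the difference was compared among arthritic mice without subtraction of the control means. On that scale they were 0.24 apart, with an exact permutation p = 0.7.

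**Figure D2:**
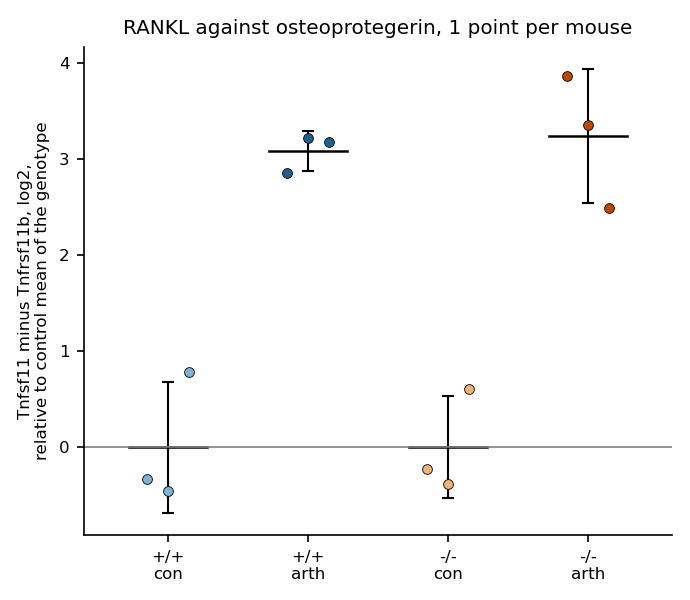
Log2 signal of Tnfsf11 minus that of Tnfrsf11b in each mouse, relative to the mean of the control mice of the same genotype (vertical axis, log2 units), with the mean and SD of each group of 3. Control mice lie between -0.45 and 0.78, and arthritic mice between 2.50 and 3.87, with the arthritic groups of both genotypes overlapping.

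The receptor gene Tnfrsf11a showed no change with arthritis that passed the test. Its signals were 7.16, 7.53 and 7.31 in Mmp8+/+ controls against 7.48, 7.63 and 7.54 with arthritis, and 7.98, 7.56 and 7.49 in Mmp8-/- controls against 7.70, 7.80 and 8.41. Control and arthritic values overlapped in either genotype, and neighbouring groups in the order of levels overlapped throughout. The log2 fold changes were 0.22 (SE 0.20, limma adjusted p = 0.450) and 0.29 (SE 0.20, adjusted p = 0.289), and the average of 0.25 had a 95% interval of -0.04 to 0.55.

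Nfatc1, the factor through which RANK signalling acts, was at 8.78, 8.73 and 8.66 in Mmp8+/+ controls and at 9.16, 9.29 and 8.98 in arthritic Mmp8+/+ mice. In the Mmp8-/- groups it was at 8.43, 8.53 and 8.47 and at 9.29, 9.0 and 9.22. Arthritic arrays were again all above the control arrays. The rise passed the test in Mmp8-/- mice (0.69, SE 0.15, limma adjusted p = 0.00444) and averaged over genotypes (0.56, 1.47-fold, adjusted p = 0.000779), but not in Mmp8+/+ mice alone (0.42, SE 0.15, adjusted p = 0.0560). The Mmp8+/+ value is close to the threshold and passed under 7 of 22 alternative settings. The difference between the rises of the genotypes did not pass the test.

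Oscar, a costimulatory receptor that binds collagen and feeds calcium signals to Nfatc1, rose in both genotypes too. It read 6.77, 6.97 and 6.83 in Mmp8+/+ controls and 7.84, 7.98 and 7.73 with arthritis. The Mmp8-/- controls read 7.09, 6.93 and 6.69, and the arthritic Mmp8-/- mice 7.70, 8.10 and 7.63. Arthritic and control arrays did not overlap, and the genotypes were 0.05 apart as controls and 0.04 apart with arthritis. The increase was 1.99-fold in Mmp8+/+ mice (0.99, SE 0.17, limma adjusted p = 0.000904) and 1.88-fold in Mmp8-/- mice (0.91, SE 0.17, adjusted p = 0.00188). Both Oscar and Tnfsf11, whose promoter windows are printed above, kept this call in all 21 alternative settings of the average.

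Itgb3, the beta chain of the vitronectin receptor with which osteoclasts seal onto bone and which platelets carry too, fell. Mmp8+/+ controls read 9.71, 9.70 and 9.60, and arthritic Mmp8+/+ mice 8.77, 8.98 and 8.96. Among Mmp8-/- mice the controls read 8.97, 9.53 and 9.51 and the arthritic mice 9.22, 8.86 and 8.72, and these groups overlapped because of the lowest control, Mmp8-/- control 1. The fall was 1.70-fold in Mmp8+/+ mice (-0.77, SE 0.18, limma adjusted p = 0.00846), whereas in Mmp8-/- mice the change of -0.40 did not pass (adjusted p = 0.114). Averaged over genotypes the fall passed (-0.59, SE 0.13, adjusted p = 0.00249).

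Calcr, the calcitonin receptor through which the hormone restrains osteoclasts, did not pass the test in either genotype. It read 5.44, 5.72 and 5.90 in Mmp8+/+ controls and 5.85, 5.65 and 6.05 with arthritis, and 5.47, 5.72 and 6.04 in Mmp8-/- controls and 6.36, 6.16 and 5.97 with arthritis. Groups overlapped in both genotypes. The log2 fold changes were 0.16 (SE 0.19, limma adjusted p = 0.567) in Mmp8+/+ and 0.42 (SE 0.19, adjusted p = 0.113) in Mmp8-/- mice. Their average of 0.29 did not pass either (SE 0.13, limma adjusted p = 0.0889).

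**Figure D3:**
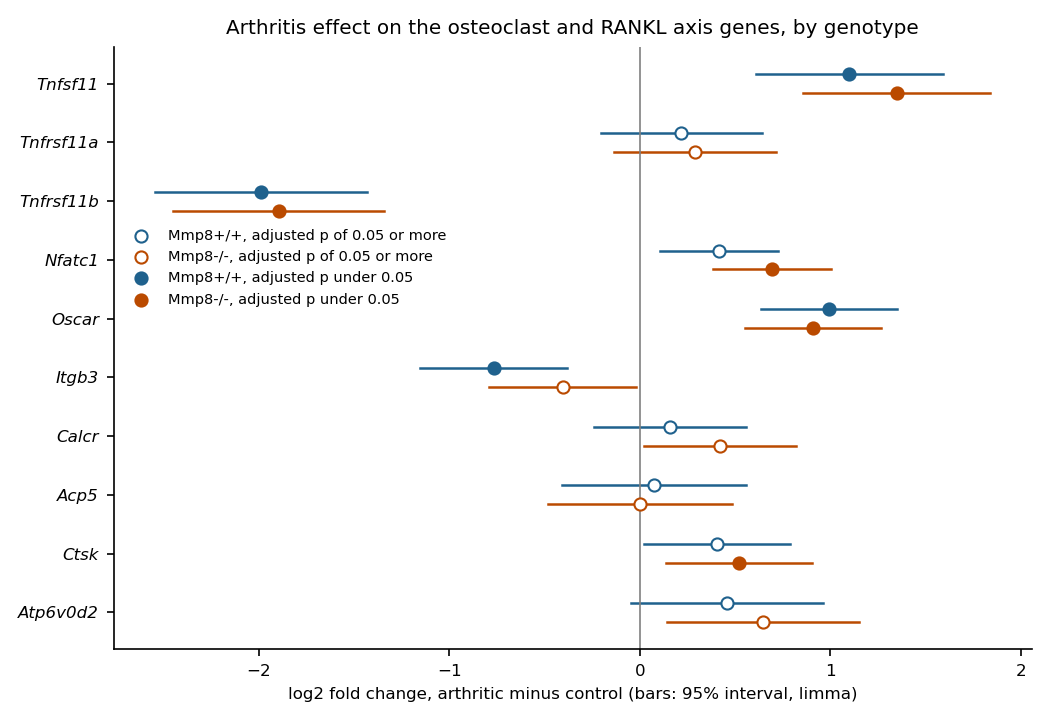
Log2 fold change with arthritis (horizontal axis, arthritic minus control) of each gene in Mmp8+/+ (blue) and Mmp8-/- mice (orange), with the 95% interval from limma. Filled points had an adjusted p under 0.05, and Tnfrsf11b and Itgb3 are the genes with both points left of 0.

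Of the resorption genes, Acp5, the tartrate-resistant acid phosphatase (TRAP) by which osteoclasts are stained, did not differ with arthritis beyond its spread. The values were 11.83, 12.15 and 12.03 in Mmp8+/+ controls, 12.40, 11.99 and 11.84 in arthritic Mmp8+/+ mice, 12.04, 11.58 and 12.44 in Mmp8-/- controls and 11.98, 11.75 and 12.35 in arthritic Mmp8-/- mice. All 4 groups overlapped, and their means stood within 0.08 of each other. The log2 fold changes were 0.07 (SE 0.23, limma adjusted p = 0.844) and 0.00 (SE 0.23, adjusted p = 0.995). The interval of the average, -0.30 to 0.38, leaves room for a change of up to 1.30-fold up.

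Ctsk, the cysteine protease that digests bone collagen in the resorption pit, was at 11.61, 11.59 and 11.60 in Mmp8+/+ controls and at 12.21, 11.95 and 11.85 in arthritic Mmp8+/+ mice. Mmp8-/- mice had 11.69, 11.15 and 11.82 as controls and 12.17, 11.91 and 12.14 with arthritis. The arthritic arrays lay above the control arrays, the closest pair only 0.04 apart. The average rise of 1.38-fold passed the test (0.46, SE 0.13, limma adjusted p = 0.00986), as did that of Mmp8-/- mice by a narrow margin (0.52, SE 0.18, adjusted p = 0.0491) but not that of Mmp8+/+ mice (0.41, SE 0.18, adjusted p = 0.123). The Mmp8-/- call held under only 4 of 22 alternative settings. The lowest control of that genotype, 11.15, is the array labelled Mmp8-/- control 2, and without it the change was 0.32 (adjusted p = 0.207).

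Atp6v0d2, a subunit of the proton pump that also takes part in osteoclast fusion, read 8.93, 9.64 and 8.63 in Mmp8+/+ controls and 9.53, 9.64 and 9.40 with arthritis. It read 9.37, 9.10 and 9.32 in Mmp8-/- controls and 9.56, 9.87 and 10.30 with arthritis. Mmp8+/+ groups overlapped, since 1 control read about as high as the highest arthritic mouse, and Mmp8-/- groups did not. Neither genotype passed alone (0.46, limma adjusted p = 0.180, and 0.65, adjusted p = 0.0602, SE 0.24 for each). The average of 0.55 did (SE 0.17, adjusted p = 0.0164), though not with ordinary regression (adjusted p = 0.0529) or without the pair of arrays with Xist signal (adjusted p = 0.0563).

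Leaving out the 3 control arrays at odds with their labels or stated sex kept the direction of all 7 members that passed on average. The average changes were 1.17 for Tnfsf11, -1.61 for Tnfrsf11b, 1.04 for Oscar, 0.57 for Nfatc1 and -0.66 for Itgb3. Ctsk (0.33) and Atp6v0d2 (0.49) had the smallest changes and no longer passed. That fit has a single Mmp8-/- control array, assumed to vary like the other groups, so only effect sizes are read here. For the 5 members that passed within Mmp8-/- mice with all arrays, the changes there were -1.46 for Tnfrsf11b, 1.18 for Tnfsf11 and 1.13 for Oscar. They were 0.70 for Nfatc1 and 0.26 for Ctsk. With 1 control array left, none of these 5 calls can be judged in that fit.

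Genes upstream and downstream of the axis were taken from a list of 46 genes by role, of which 44 were tested. Averaged over genotypes 28 of them passed, 20 higher and 8 lower with arthritis, or 63.6% beside the 43.0% of all features, and their median log2 fold change was 0.30 beside -0.00. The list was chosen with earlier results of these data known. Within Mmp8+/+ mice 16 passed, or 36.4% beside 19.6% of all features. With ordinary regression 8 passed in these mice, and the share of all features in that setting is not given. The excess in Mmp8+/+ mice is therefore not shown to hold without the moderated variances of limma. Within Mmp8-/- mice 15 passed, or 34.1% beside 22.6%. The average counts by role and by marker list below are to be read beside the 43.0% of all features, 19.8% higher and 23.2% lower. Leaving out Il6, which entered the test through the arthritic arrays alone, 27 of 43 passed on average (62.8%, median 0.30). In that list 15 passed in Mmp8+/+ mice (34.9%) and 14 in Mmp8-/- mice (32.6%). Without the 3 arrays named above fewer passed on average. In Mmp8+/+ mice 9 passed without Mmp8+/+ arthritic 1, where 2124 of all features passed. In Mmp8-/- mice 9 passed without the array labelled Mmp8-/- control 2, where 2384 of all features passed. Il1a was not tested because it was below the minimum signal with a mean of 4.90.

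Among signals that are known to raise RANKL, 7 of 10 tested genes were higher and 1 lower, or 6 higher and 1 lower of 9 without Il6. Il6, the interleukin that drives RANKL on stromal cells, went from 3.72 to 4.18 in Mmp8+/+ controls to 5.84 to 7.40 with arthritis, and from 3.51 to 4.17 to 6.68 to 7.75 in Mmp8-/- mice. Its control levels lie below the minimum mean signal set for testing, so it entered the test through the arthritic arrays alone, and no fold change or p is given for it. Ptgs2, which makes prostaglandin, rose by 2.45 (limma adjusted p = 2.74e-07) and Il1b by 2.11 (adjusted p = 2.48e-08). Smaller rises were those of the interleukin-6 family members Osm (1.05), Lif (0.67) and Il11 (0.41) and of Tnf (0.35). Pth1r, the parathyroid hormone receptor of osteoblasts, fell (-0.61, adjusted p = 0.00894). The vitamin D receptor gene Vdr (-0.13) and Il17a (0.37) did not pass.

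Within the relay from RANK to the nucleus, 7 of 12 genes were higher and 2 lower. Nfkb2 and Relb, the alternative NF-kappaB pair, rose by 1.09 and 0.75 (limma adjusted p = 2.17e-06 and 0.000980). The AP-1 gene Fos rose by 1.08, and Spi1, which encodes PU.1, by 0.76 (adjusted p = 0.000146 and 0.000373). Prdm1, a repressor that clears inhibitors of the osteoclast programme, rose by 0.77, Jdp2 by 0.66 and the kinase gene Src by 0.44. Mitf, a transcription factor that cooperates with PU.1, fell (-0.70, adjusted p = 0.00113), and so did the phospholipase gene Plcg2 (-0.35, adjusted p = 0.0331). The adaptor gene Traf6 (-0.15) and the kinase gene Map3k14 (0.19) did not pass.

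Cell fusion and costimulation genes moved up. Both fusion genes rose, Ocstamp by 0.88 and Dcstamp by 0.58 (limma adjusted p = 8.49e-05 and 0.00877), and Ocstamp read 7.40 to 8.02 on the 6 control arrays and 8.41 to 8.72 on the 6 arthritic arrays. Of 4 costimulation genes 3 rose, the adaptors Fcer1g (0.52) and Tyrobp (0.45) and the receptor Trem2 (0.30), with adjusted p of 0.0274, 0.0103 and 0.0458. None of these 3 passed within a genotype alone.

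Of the acid and matrix resorption genes 1 of 10 was higher and 3 lower, or 40% beside 43.0% of all features, with a median of 0.03. The gelatinase gene Mmp9 rose by 0.46 (limma adjusted p = 0.0109). Car2, the carbonic anhydrase that supplies protons to the pump and is abundant in red cells too, fell (-1.24, SE 0.30, adjusted p = 0.00444). Its fall was -1.85 in Mmp8+/+ mice (adjusted p = 0.00689) and its change -0.64 in Mmp8-/- mice (adjusted p = 0.269). Ostm1, a partner of the chloride channel, fell (-0.37), as did the creatine kinase gene Ckb (-0.36), and the proton pump gene Tcirg1 had a change of 0.31 that did not pass (adjusted p = 0.116). Erythroid markers, which Car2 shares as a red cell gene, were lower in 4 of 4 tested, and the part of red cells in its fall was not tested.

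Among inhibitors and growth factors, Lgr4, a second receptor for RANKL that dampens its signal, fell in Mmp8+/+ (-1.04) and Mmp8-/- mice (-1.90), with limma adjusted p of 0.00553 and 6.39e-05. Irf8 (-0.27) and Bcl6 (-0.44), repressors of the osteoclast programme, did not pass. Of the M-CSF group, Il34, an alternative ligand of its receptor, fell (-0.80, adjusted p = 0.00365), and Csf1 (-0.28) and Csf1r (-0.15) did not pass.

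**Figure D4:**
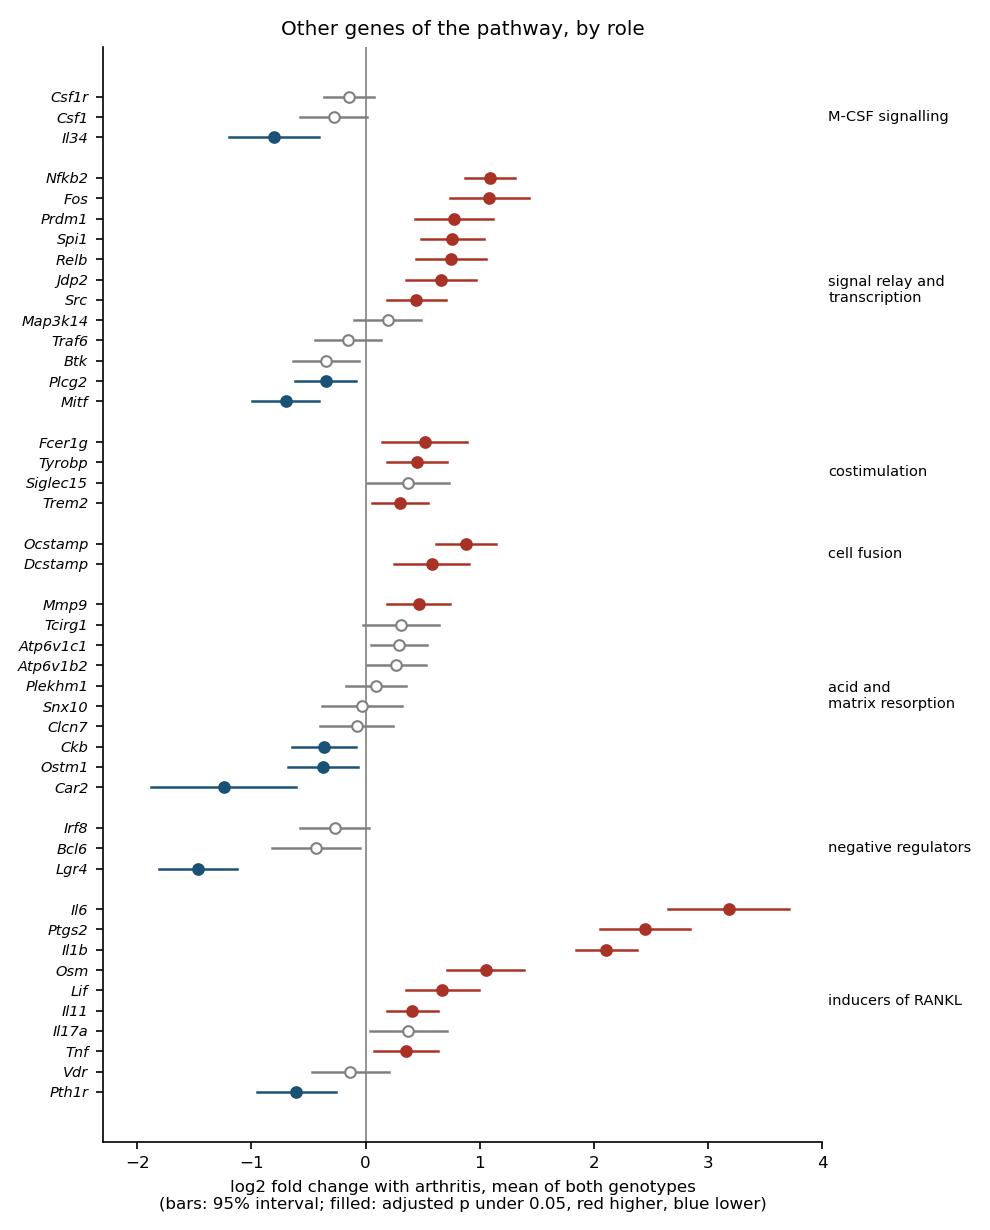
Average log2 fold change with arthritis (horizontal axis) of the 44 tested genes upstream and downstream of RANKL, by role, with the 95% interval from limma. Filled red points were higher and filled blue points lower at an adjusted p under 0.05, and 7 of the 10 inducers of RANKL are red, among them Il6, whose control signal is below the minimum for testing.

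Marker genes of the cells that make or answer RANKL did not move in one direction. Osteoblast and osteocyte markers, of cells known to express both Tnfsf11 and Tnfrsf11b, fell in 6 of the 7 tested (median -1.16), or in 5 of 6 without Mepe, which was above the minimum signal in control mice alone, and Bglap had no feature of its own symbol alone. Their mean signal per array was 8.78 to 9.39 and 9.18 to 9.65 in Mmp8+/+ and Mmp8-/- controls and 7.61 to 7.82 and 7.55 to 8.48 with arthritis. Phex (-3.22), Dmp1 (-2.01) and Alpl (-1.42) were among those that fell, and the part of these cells in the fall of Tnfrsf11b was not tested. Megakaryocyte and platelet markers, which share Itgb3, fell in 3 of 4 tested (Ppbp -1.71, Itga2b -1.06, Gp9 -0.76), from array means of 9.64 to 9.71 and 8.81 to 9.58 to 7.95 to 8.81 and 8.50 to 8.73. Mmp8-/- control 1, the lowest control for Itgb3, was also the lowest control for this list, and the part of platelets in the fall of Itgb3 was not tested.

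T cell markers, of a cell that can present RANKL, did not rise. They fell in 2 of 4 tested (Cd3g -1.06 and Cd8a -0.71). Synovial fibroblast markers split, with Pdpn (2.13) and Thy1 (0.84) higher and Cd55 (-2.33), Fap (-0.89) and Prg4 (-0.35) lower, and their array means were 9.86 to 10.36 in Mmp8+/+ controls, 10.27 to 10.38 in Mmp8-/- controls, 10.05 to 10.20 in arthritic Mmp8+/+ and 9.61 to 10.26 in arthritic Mmp8-/- mice. The Mmp8-/- controls lay just above all arthritic arrays for that list. The macrophage list, the lineage from which osteoclasts come and which shares Csf1r with the M-CSF group, split too. Cd68 (0.64), Itgam (0.37) and Adgre1 (0.34) rose and the resident macrophage markers Cd163 (-1.17) and Mrc1 (-0.53) fell, with array means of 9.82 to 10.25 over all 12 arrays. The part of these cells in the rises of Tnfsf11, Oscar and Nfatc1 was not tested.

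**Figure D5:**
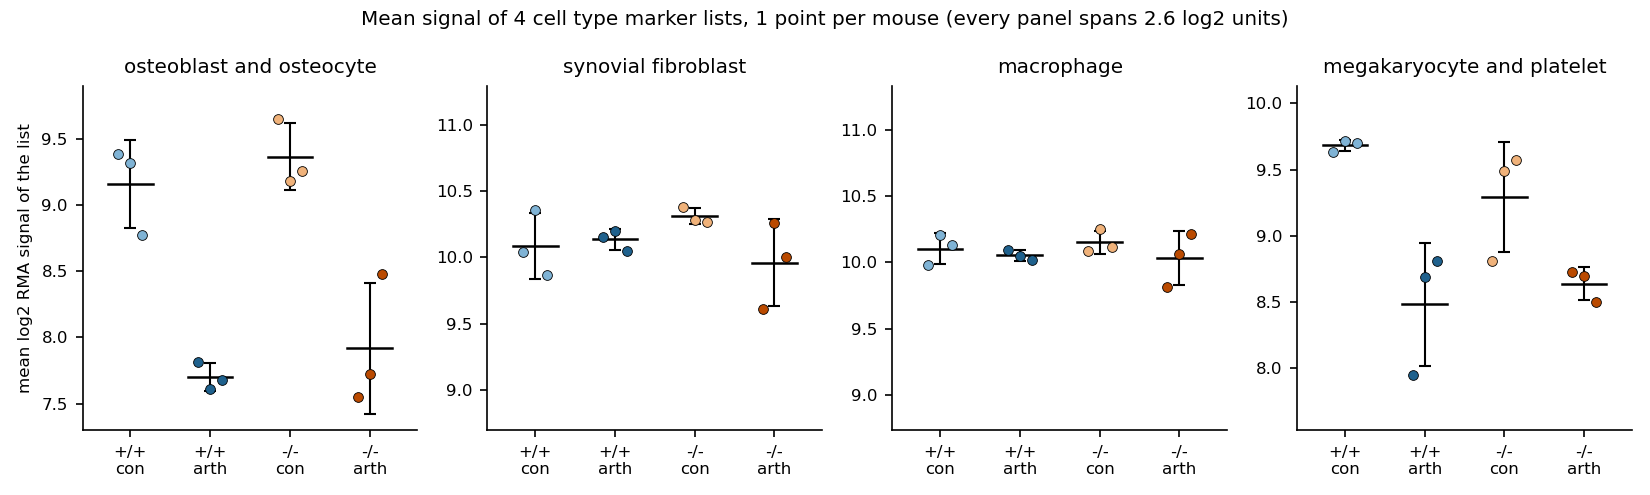
Mean log2 signal of the measured genes of 4 marker lists on each array, 1 point per mouse, with the mean and SD of each group of 3. Osteoblast and osteocyte markers are lower on every arthritic array (7.55 to 8.48) than on every control array (8.78 to 9.65), the macrophage list overlaps across the groups, and for synovial fibroblasts the Mmp8-/- controls (10.27 to 10.38) lie just above the arthritic arrays.

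Over the 12 arrays, the other tested genes were ranked by how closely they followed 4 of the members, with Pearson's r as a description over 15976 genes. The points share the contrast of arthritic and control mice. Tnfsf11 was followed most closely by the transcript D030025P21Rik (r = 0.969), the feature annotated as Mir598 (0.963) and the zinc finger gene Glis1 (0.960). For Tnfrsf11b the nearest were the cadherin gene Cdh19 (0.990), the growth factor gene Hbegf (0.988) and Crip1 (0.984), which fell with arthritis by average log2 values of -1.97, -1.46 and -0.84 (limma adjusted p = 7.93e-06, 9.97e-07 and 5.03e-05). Near Ctsk stood Thoc6 (0.941), Msto1 (0.931) and Manf (0.931), the last a secreted factor of the stressed endoplasmic reticulum that rose by 0.91 (adjusted p = 0.000236). Acp5 was followed less closely, with Bloc1s4 (0.859), Rrp9 (0.838) and Klhl5 (0.816). Ctsk and Acp5, both enzymes of the same cell, had r = 0.565 with each other, and Tnfsf11 and Acp5 had r = 0.07.

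Whether loss of Mmp8 alters these genes was the question of the remaining comparisons, and none of the 10 genes differed between the genotypes at an adjusted p under 0.05. Among arthritic mice 0 members passed, against 0.00573% of all features tested with limma, of which 504 had an unadjusted p under 0.05, and the members' log2 differences lay between -0.05 and 0.42. Tnfrsf11a came closest. Its arthritic Mmp8-/- values (7.70 to 8.41) did not overlap the arthritic Mmp8+/+ values (7.48 to 7.63), for a difference of 0.42 with a 95% interval of -0.01 to 0.84 and a limma adjusted p = 0.9997. Without Mmp8-/- arthritic 3 that difference was 0.20. How many of all features had no overlap was not counted, so no genotype effect is read from this separation. For Tnfsf11 the difference was 0.29 (interval -0.20 to 0.78), and 0.086 without Mmp8-/- arthritic 1 and 0.52 without Mmp8-/- arthritic 3, and for Tnfrsf11b it was 0.05 (-0.51 to 0.61). Acp5 differed by -0.05 (interval -0.53 to 0.43) and Ctsk by 0.07 (-0.32 to 0.45). These intervals do not show that the genotypes were alike, since they leave room for differences of up to 1.72-fold in Tnfsf11, 1.79-fold in Tnfrsf11a and, the widest upper limit of the 10 members, 1.86-fold in Atp6v0d2. The genotypes also differed in skin markers among arthritic mice. Epidermis markers had array means of 7.82 to 8.16 in Mmp8-/- and 9.11 to 9.72 in Mmp8+/+ mice, and all 5 were lower in Mmp8-/- mice by value (median -1.40). Of these Krtdap, a keratinocyte differentiation gene, was the 1 feature that passed (-1.83, limma adjusted p = 0.0187). The part of skin in the genotype values of the members was not tested.

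Among control mice 0 members passed in limma, as did 0% of all features, of which 567 had an unadjusted p under 0.05. The members' log2 differences lay between -0.33 and 0.35, the highest being that of Tnfrsf11a, whose control groups overlapped. Nfatc1 was 0.25 lower in Mmp8-/- controls (8.43 to 8.53) than in Mmp8+/+ controls (8.66 to 8.78), without overlap, and Itgb3 was 0.33 lower (8.97 to 9.53 against 9.60 to 9.71), also without overlap. Without Mmp8-/- control 1, an array with Xist signal, the Itgb3 difference was -0.15. It was -0.43 without the array labelled Mmp8-/- control 2, whose Mmp8 signal is at the level of the Mmp8+/+ arrays. The Nfatc1 difference lay between -0.28 and -0.22 with each array left out. With all arrays the limma adjusted p of Nfatc1 and Itgb3 was 0.999 each. The share of all features without overlap was not counted, so no genotype effect is read from these separations. The test of whether arthritis changed a gene differently in the genotypes found 0 members and 0% of all features, with 555 features at an unadjusted p under 0.05. Over the members, the values of this comparison lay between -0.08 and 0.36. The difference of the arthritis effects was 0.25 for Tnfsf11 (interval -0.45 to 0.94, and 0.044 to 0.47 with each array left out), 0.09 for Tnfrsf11b (-0.69 to 0.88) and 0.36 for Itgb3 (-0.18 to 0.91), the last being 0.18 without Mmp8-/- control 1, so that a difference between the genotypes in the fall of Itgb3 is not shown. Ordinary linear regression also found 0 members in each of these 3 comparisons.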

How the data were processed

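Whole ankle joints of 12 mice were profiled on 1 array each, and groups were taken from the sample labels. The authors normalized the arrays by RMA (background correction, quantile normalization and probe summary) in Partek before they deposited the log2 values used here. The deposited table held 28853 features and 12 value columns, of which 0 were left out. By the platform annotation 21789 features carried 1 symbol, 1621 carried several and 5443 had none. A gene was read from its feature with 1 symbol, the one of highest mean if there were several.

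Features with 1 symbol and a mean log2 signal of at least 5.3 were tested, 17450 in all, with 1 mean per group in limma 3.58.1 under R 4.3.3 (moderated variances, 8 residual degrees of freedom, no covariate). Every adjusted p is from limma, two-sided, by Benjamini-Hochberg over these features at 5%, and where arrays were left out limma was fitted again. The average effect is the mean of the log2 fold changes of both genotypes. Errors are SE for fold changes and SD for group means. The difference of Tnfsf11 and Tnfrsf11b was compared by exact permutation.

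The members and the gene lists were chosen with earlier results of these data known. Named are all members, the 7 pathway lists and 13 marker lists by counts, the pathway genes that passed in the average, others whose role needs a value, and the 3 genes closest in pattern to each of 4 members. In the genotype comparisons all members are given by their range and 7 with values. The remaining marker lists had, of those tested, 3 higher and 1 lower of 6 (chondrocyte), 1 and 5 of 8 (neutrophil), 0 and 4 of 4 (B cell), 0 and 5 of 5 (muscle), 0 and 5 of 5 (adipocyte), 0 and 1 of 5 (epidermis) and 0 and 2 of 5 (endothelium).

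The fit was tested on simulated data. Alternatives were the compared groups alone, ordinary regression, an intensity trend with robust settings, array weights, no filter, all features, another centring, quantile normalization, each array left out and the arrays at odds with their labels left out. 1 listed gene is not reported here. The number of arrays limits the precision.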

Additional observations from a re-analysis of the deposited data

How the results depend on the processing

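No paired analysis was possible because the labels carry no replicate number that is shared between the groups. Directions held throughout for Tnfsf11, Tnfrsf11b, Oscar, Nfatc1 and Itgb3 in the average, and these 5 passed in all 21 alternatives. Among the values of single members under the alternatives, 802 kept direction and side of the threshold, 24 fell below it, 17 rose past it and 24 changed sign. All 48 values of the shift of Tnfsf11 against Tnfrsf11b kept their direction. With each array left out they lay between 2.86 and 3.48 in Mmp8+/+ and 2.93 and 3.62 in Mmp8-/-. The average then lay between 3.01 and 3.36. Without all 3 control arrays at odds with labels or sex, the shift was 2.92 in Mmp8+/+, 2.64 in Mmp8-/- and 2.78 on average. Within a genotype the exact permutation p cannot be under 0.1, so no call could change there. Genotype and interaction counts of members stayed at 0.

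Signs changed only where the value was near 0. Acp5 in arthritic mice differed between genotypes by 0.00069 with array weights. Without the pair of arrays with Xist signal its arthritis effect was -0.013 in Mmp8+/+ mice and -7.5e-05 on average. Without these and the array labelled Mmp8-/- control 2 it was -0.013 in Mmp8+/+, -0.42 in Mmp8-/- and -0.22 on average. With each array left out it ranged from -0.090 to 0.19 in Mmp8+/+, from -0.22 to 0.21 in Mmp8-/- and from -0.072 to 0.14 on average. Genotype differences in arthritic mice then ranged from -0.10 to 0.25 for Tnfrsf11b, from -0.21 to 0.11 for Acp5 and from -0.010 to 0.17 for Ctsk, and the interaction of Tnfrsf11b from -0.14 to 0.34.

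Counts depended on the control arrays. Other pathway genes that passed in Mmp8+/+ mice numbered 8 with ordinary regression, 10 without the arrays with Xist signal and 9 without all 3 arrays, and features 1916 and 1700 without these arrays. In Mmp8-/- mice features numbered 1715 and 482, and without all 3 arrays 2 members and 5 pathway genes passed. In the average 4721 and 2681 features passed, and 14 pathway genes without all 3. The fits without arrays rest on fewer mice, and for ordinary regression no count of all features is given. With each array left out, pathway genes ranged from 9 (without Mmp8+/+ arthritic 1) to 19 in Mmp8+/+ mice and from 9 (without the array labelled Mmp8-/- control 2) to 16 in Mmp8-/- mice. Features ranged from 2067 (without Mmp8+/+ control 1; 2124 without Mmp8+/+ arthritic 1) to 4202 in Mmp8+/+ mice and from 1851 (without Mmp8-/- control 1; 2384 without the array labelled Mmp8-/- control 2) to 4083 in Mmp8-/- mice. The choice between several features of a member was not run, since each had 1. With the compared groups alone there is no value for the average or the interaction.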
